A study of Mus musculus with 6 samples.

Results

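The genes described here encode chaperones of the endoplasmic reticulum (ER) and components of the unfolded protein response. They are 36 listed mouse genes, chosen by symbol, and all 36 were found among the 16111 genes of the deposited expression table. Of these, 35 passed the filter on low counts and were among the 11408 genes tested; Derl3 did not pass it.

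They were measured by RNA sequencing in 6 libraries of cultured fetal liver macrophages. The wild-type group held 3 libraries (WT) and the Ahrr-deficient group 3, the latter labelled AhRR-/-. Ahrr encodes the aryl hydrocarbon receptor repressor, a protein that holds back the ligand-activated transcription factor AhR. The study compared gene expression between these genotypes. All 6 libraries shared the strain C57BL/6 RCC, fetuses of stage E13.5, 5 weeks of culture in medium with 10% fetal calf serum and 2% GM-CSF, and harvest of the cells that did not adhere. GM-CSF is a growth factor on which macrophages can be kept in culture. No ER stressor or AhR ligand is named for either group. The labels number the mice 1 to 3 within each genotype but do not say whether fetuses were pooled, how the Ahrr allele was made, or that cultures were started separately, so p-values measure the spread between these libraries.

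Proteins bound for the cell surface, the lysosome or secretion enter the ER through the Sec61 channel and are folded there by chaperones such as BiP (Hspa5) and by enzymes that form disulphide bonds. When unfolded proteins build up, the membrane sensors IRE1 (Ern1), PERK (Eif2ak3) and ATF6 are activated: IRE1 splices the mRNA of the transcription factor XBP1, PERK phosphorylates the initiation factor eIF2 alpha and so favours translation of ATF4, and ATF6 is cut to release a transcription factor. XBP1 and ATF6 raise the transcription of chaperones and of the machinery that returns misfolded proteins to the cytosol for destruction, known as ER-associated degradation. Macrophages carry a large load of lysosomal and secreted proteins, and XBP1 has known roles in their cytokine responses.

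The best-known control sequence of this gene group is the ER stress response element (ERSE), CCAAT followed after 9 bases by CCACG, which binds NF-Y together with ATF6 or XBP1. It was searched on both strands of RefSeq promoter windows (GRCm38.p6, 250 bases before to 50 after each start), which were available for 30 of the 36 genes. The windows of 9 of these 30 genes (30.0%) held an ERSE, against 39 of the 32851 windows (0.119%) of the whole table. The 10 sites are shown because these 9 genes form a subgroup defined by sequence alone, whose expression is given further on. Each is read 5′ to 3′ in the direction of CCAAT, with 10 bases on either side and the fixed letters in capitals.

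Hspa5, chr2:34772015-34772053, plus strand: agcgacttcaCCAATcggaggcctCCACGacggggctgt
Hsp90b1, chr10:86705523-86705561, plus strand: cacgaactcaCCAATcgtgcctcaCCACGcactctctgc
Hsp90b1, chr10:86705628-86705666, minus strand: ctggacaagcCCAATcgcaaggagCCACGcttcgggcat
Calr, chr8:84847065-84847103, plus strand: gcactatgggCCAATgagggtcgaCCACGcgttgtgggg
Canx, chr11:50325790-50325828, minus strand: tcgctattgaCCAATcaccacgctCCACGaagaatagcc
Pdia6, chr12:17266481-17266519, plus strand: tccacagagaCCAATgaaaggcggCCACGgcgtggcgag
Dnajc3, chr14:118937817-118937855, plus strand: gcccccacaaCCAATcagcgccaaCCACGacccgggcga
Creld2, chr15:88819510-88819548, minus strand: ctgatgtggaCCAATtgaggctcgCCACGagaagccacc
Syvn1, chr19:6046522-6046560, plus strand: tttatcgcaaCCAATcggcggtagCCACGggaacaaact
Derl3, chr10:75893232-75893270, minus strand: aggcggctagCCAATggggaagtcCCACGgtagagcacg

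A related element, ERSE-II, has ATTGG and CCACG separated by 1 base. It occurred in the windows of Herpud1 and Dnajb11, 2 of 30 genes (6.67%), against 12 windows of the whole table (0.0365%). The site of Herpud1, a gene of ER-associated degradation, lies before its start, and that of Dnajb11 lies after it.

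Herpud1, chr8:94386367-94386397, plus strand: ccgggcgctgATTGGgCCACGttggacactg

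The stretches of 250 bases before the start of Hspa5 and of Xbp1 place the element in context. Hspa5 holds an ERSE beginning 65 bases before its start, in capitals, whereas neither element occurs in the Xbp1 window. No match says only that these letters are not in that window.

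Hspa5, chr2:34771840-34772089, plus strand: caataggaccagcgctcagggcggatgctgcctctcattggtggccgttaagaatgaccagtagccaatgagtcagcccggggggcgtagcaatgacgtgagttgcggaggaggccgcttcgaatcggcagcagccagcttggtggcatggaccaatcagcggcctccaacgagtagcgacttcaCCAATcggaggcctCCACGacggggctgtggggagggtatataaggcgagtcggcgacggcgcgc
Xbp1, chr11:5520391-5520640, plus strand: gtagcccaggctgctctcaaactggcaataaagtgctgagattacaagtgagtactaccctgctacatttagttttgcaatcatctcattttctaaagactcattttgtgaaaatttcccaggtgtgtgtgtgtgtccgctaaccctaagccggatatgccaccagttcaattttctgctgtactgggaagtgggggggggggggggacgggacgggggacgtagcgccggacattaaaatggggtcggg

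Library totals ranged from 3556106 to 41668336 counts, an 11.72-fold range, and the shallowest was Ahrr-deficient replicate 1. Over all tested genes the first principal component (55.5% of variance) separated the genotypes and on the second (20.4%) Ahrr-deficient replicate 1 stood apart. WT replicate 2 had 5.28% of its counts on the ribosomal RNA gene CT010467.1, against at most 0.0679% elsewhere. Ahrr itself had 4.60, 4.74 and 5.21 CPM (counts per 1000000 counts of the library, scaled by TMM factors) in WT and 2.23, 2.47 and 1.18 in the Ahrr-deficient libraries, a log2 fold change of -1.21 (SE 0.26, adjusted p = 0.0151, edgeR). All 10 macrophage markers were detected, with a summed level of 24536 to 26962 CPM in WT and 15160.2 to 22823 CPM in the Ahrr-deficient libraries, most of it from Lyz2. Among them Csf1r and Cd14 fell and Itgax rose. Mast cell and basophil markers were absent (0 of 7 in the table), and neutrophil markers summed to at most 2.63 CPM and B and plasma cell markers, represented by Ighm alone, to at most 7.27 CPM. Of the 8 erythroid markers 2 were in the table, at 14.7 to 22.1 CPM in WT and 2.63 to 4.73 CPM in the Ahrr-deficient libraries, mostly Epor. For the hepatocyte list 3 of 7 were in the table, without Alb, at 163 to 186 and 86.2 to 119 CPM, mostly Trf. Trf shares 2108 exonic bases with Gm20425 on the same strand. Of the 7 dendritic cell markers 4 were in the table, at 60.8 to 69.2 and 75.9 to 95.8 CPM, mostly Clec9a, and of the 6 fibroblast markers 1 was, at 1.57 to 10.7 CPM. The part of these differences in the results on ER genes was not tested. In bulk samples fewer cells of a type and less RNA per cell cannot be told apart.

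Of the 35 tested ER genes, 2 rose in the Ahrr-deficient libraries, Xbp1 and Derl1, and 0 fell, at an adjusted p under 0.05. That is 5.71% of the ER genes, whereas 19.6% of all tested genes passed the same threshold, 9.62% higher and 9.95% lower. The counts by role given below, of 2 to 8 listed genes each, have these same shares beside them. At an unadjusted p under 0.05 there were 12 ER genes, against 35.8% of all genes. Log2 fold changes of the ER genes lay between -0.46 and 0.61, with 19 above 0 and 16 below (50.9% of all tested genes were above 0), and a median of 0.05 against 0.01 over all tested genes. The median absolute log2 fold change was 0.14 for the ER genes and 0.22 for all tested genes. The ER genes were also measured more precisely, with a median standard error of 0.10 against 0.13. Their median count per library was 2404, against 417 for all tested genes. Less precise values spread more widely, and the part of this in the difference of the medians was not tested. Of the 35 tested genes 0 differed by 2-fold or more, and Xbp1 alone differed by at least 1.5-fold.

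**Figure D1:**
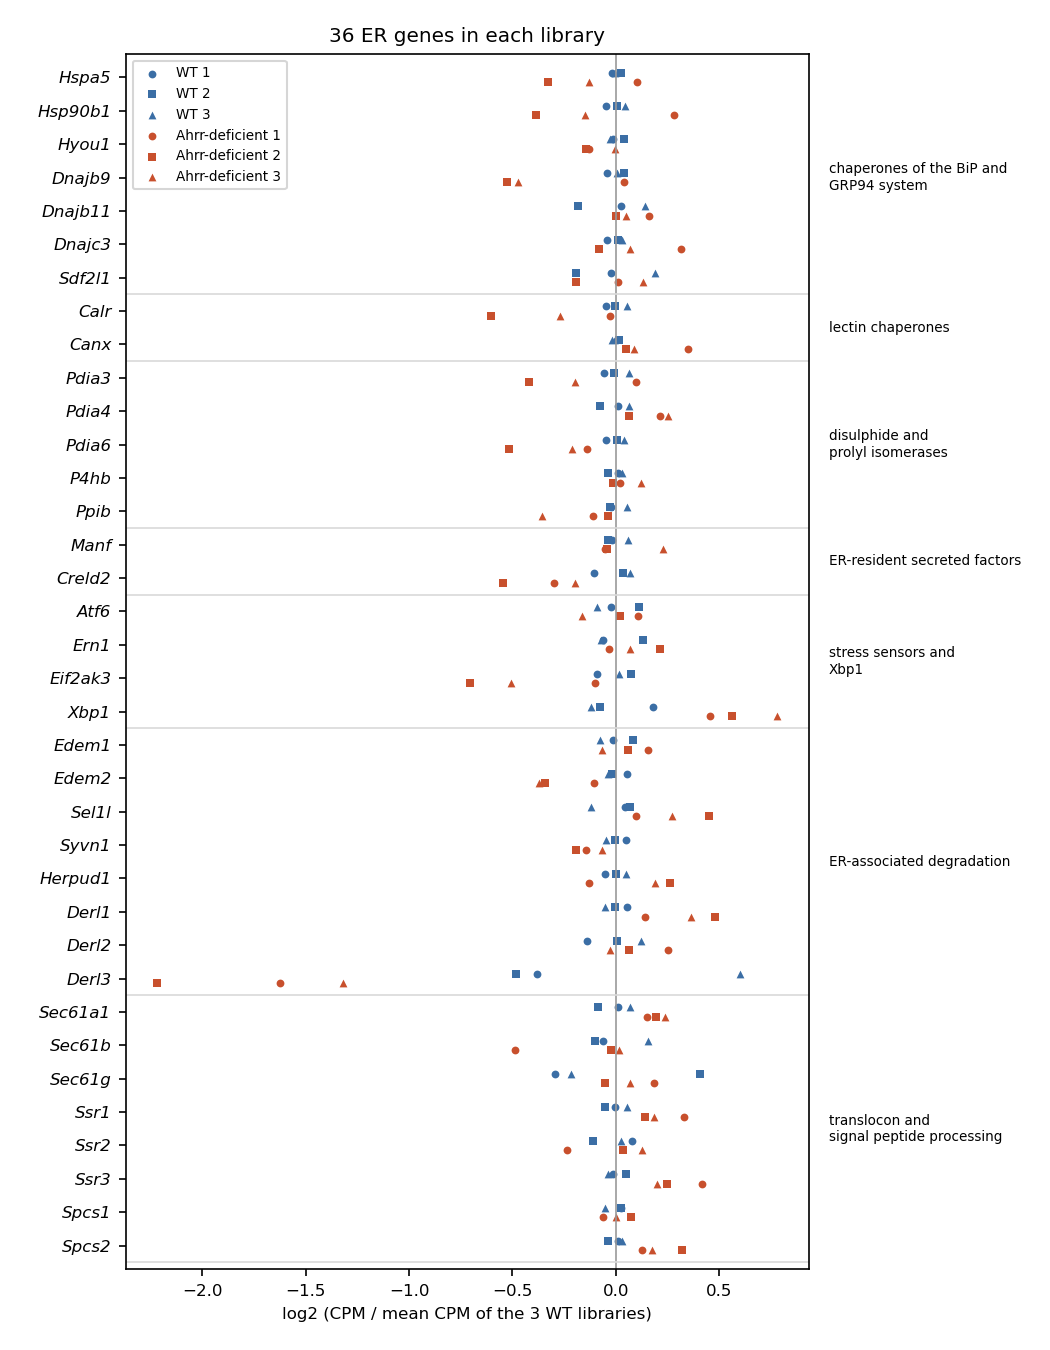
Level of each of the 36 ER genes in each library, as log2 of its CPM over the mean of the 3 WT libraries, grouped by role. Blue symbols are WT and red symbols Ahrr-deficient libraries, with circle, square and triangle for replicates 1, 2 and 3. Xbp1 has all 3 red symbols to the right of the blue ones; for Hspa5, Hsp90b1 and Calr the red symbols are spread more widely than the blue ones.

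The summed level of all 36 genes was 7796, 7831 and 7896 CPM in WT and 8565, 7420.3 and 8013 CPM in the Ahrr-deficient libraries. The WT libraries lay within a narrow band, and the Ahrr-deficient libraries lay on both sides of it. The means were 7841 ± 50.7 and 7999 ± 573 CPM (SD, n = 3 each) (ratio 1.02). Xbp1 alone went from a mean of 419 to 638 CPM, a wider step than that between the means of the sum. As a share of all counts the ER genes took 0.708% to 0.807% in WT and 0.772% to 0.865% in the Ahrr-deficient libraries. The 0.708% is that of WT replicate 2, whose total includes the 5.28% of counts on CT010467.1.

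Per length, the most abundant transcripts in WT were those of Calr (355 RPKM, which is CPM per kilobase of exon), P4hb (251), Pdia3 (189), Hspa5 (166), Hsp90b1 (154) and Xbp1 (129). Calr and Pdia3 encode the lectin chaperone calreticulin and its partner disulphide isomerase. The lowest were Derl3 (0.862 RPKM) and Sec61g (1.29 RPKM), followed by Derl2 (7.58 RPKM) and Eif2ak3 (8.67 RPKM). The length takes in every annotated exon of a gene, so this order depends on the annotation. Derl2, with 8049 bases, had a mean of 61.0 CPM in WT, near the 61.0 of Manf and 61.1 of Ppib. No test was made between genes.

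Of the 4 genes at the head of the response 1 passed the threshold. Xbp1, the transcription factor downstream of IRE1 (chr11:5520659-5525893, GENCODE M21 on GRCm38), had 475, 397 and 385 CPM in WT and 575, 619 and 720.3 CPM in the Ahrr-deficient libraries. Every Ahrr-deficient library was above every WT library, and the highest WT library was replicate 1. The mean went from 419 ± 48.7 to 638 ± 74.5 CPM (SD, n = 3 each), a 1.52-fold rise (log2 fold change 0.61, SE 0.13, 95% interval 0.32 to 0.90, adjusted p = 0.0140, edgeR). Leaving out WT replicate 2, WT replicate 3 or Ahrr-deficient replicate 3 ended this call, with adjusted p of 0.0556, 0.0581 and 0.0541. The gene count does not separate spliced from unspliced Xbp1 mRNA, so it carries no measure of IRE1 activity.

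Eif2ak3, which encodes PERK, had 49.0, 54.9 and 52.8 CPM in WT and 48.7, 32.1 and 36.7 CPM in the Ahrr-deficient libraries. The groups did not overlap, but Ahrr-deficient replicate 1 stood just under the lowest WT library while replicates 2 and 3 stood far below. The log2 fold change of -0.46 (SE 0.14, 95% interval -0.78 to -0.13) missed the threshold with an adjusted p of 0.0552. It passed in 6 of 17 alternative settings, with adjusted p of 0.0395 by DESeq2, 0.0234 by limma-voom, 0.0440 with upper-quartile scaling and 0.00298 with no filter on low counts, as well as in both fits without Ahrr-deficient replicate 1. Eif2ak3 shares 485 exonic bases with Gm43292 on the opposite strand, and reads of such pairs cannot be told apart without strand, whose use in counting is not stated.

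Atf6 had 113, 124 and 108 CPM in WT and 124, 116 and 103 CPM in the Ahrr-deficient libraries. Ern1, which encodes IRE1, had 141, 161 and 140.0 CPM against 144, 171 and 154 CPM. Both genes had overlapping groups, with log2 fold changes of -0.01 (95% interval -0.22 to 0.20) for Atf6 and 0.09 (-0.12 to 0.31) for Ern1.

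**Figure D2:**
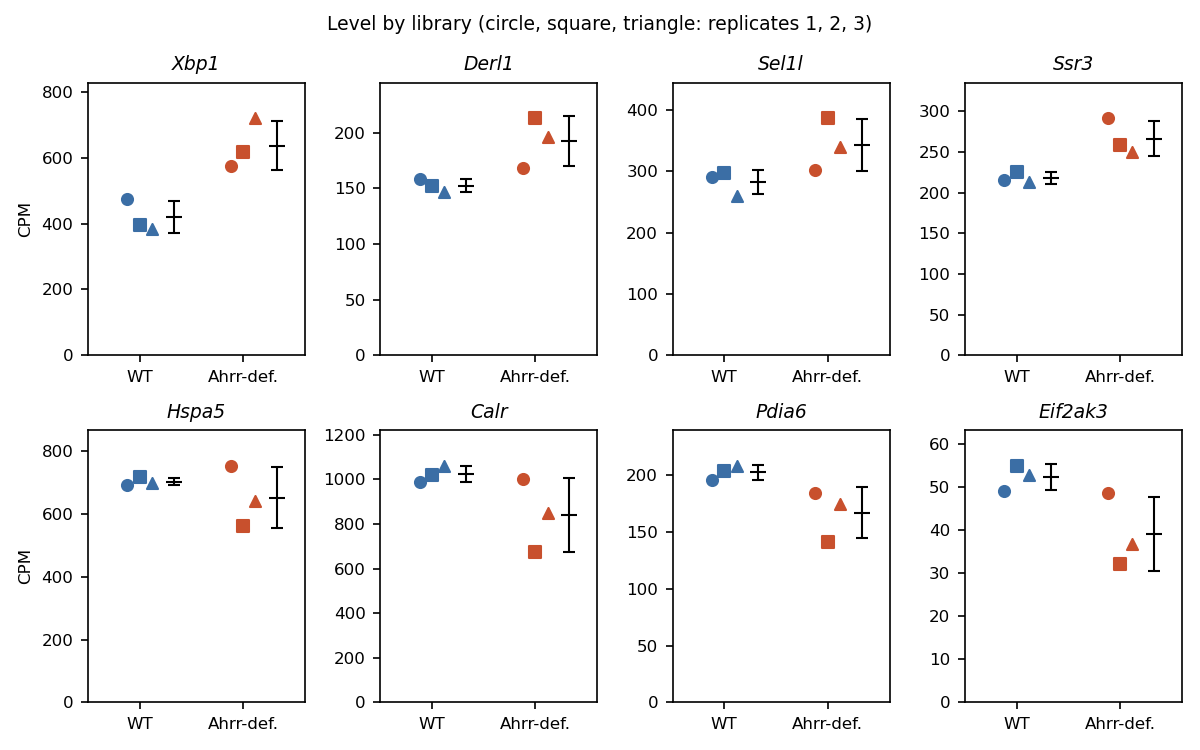
CPM of 8 ER genes in each library, with an axis from 0 for each gene; circle, square and triangle are replicates 1, 2 and 3, and black bars are the mean ± SD of 3 libraries. Xbp1 and Derl1, which passed the threshold, are higher in every Ahrr-deficient library; for Hspa5 and Calr Ahrr-deficient replicate 1 lies near or above WT and replicate 2 below it.

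None of the 7 chaperones of the BiP and GRP94 system passed the threshold, and their median log2 fold change was -0.06. Hspa5 encodes BiP, the Hsp70 chaperone that binds unfolded chains and keeps the sensors inactive. It had 694, 717 and 701 CPM in WT and 754, 561 and 642 CPM in the Ahrr-deficient libraries. Replicate 1 of the Ahrr-deficient group was the highest of all 6 and replicate 2 the lowest. The log2 fold change was -0.11, with a 95% interval of -0.39 to 0.17, so a change of 2-fold in either direction lies outside it. Hsp90b1, which encodes the Hsp90 chaperone GRP94, likewise had Ahrr-deficient replicate 1 as the highest and replicate 2 as the lowest of the 6 libraries, with 599, 623 and 639 CPM in WT and 753, 475 and 560.0 CPM in the Ahrr-deficient group (log2 fold change -0.06, adjusted p = 0.825). It shares 415 exonic bases with 1810014B01Rik on the opposite strand.

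Dnajb9 encodes the BiP cochaperone ERdj4 and had the largest difference of the 7. It stood at 89.8, 94.97 and 92.9 CPM in WT and 94.9, 64.3 and 66.6 CPM in the Ahrr-deficient libraries. Replicate 1 was within the WT values, while replicates 2 and 3 were below all of them (log2 fold change -0.33, SE 0.14, adjusted p = 0.126). It passed in 5 of 17 alternative settings, among them offsets for GC content (-0.48, adjusted p = 0.0193) and no filter on low counts (adjusted p = 0.0307). The nucleotide exchange factor Hyou1 and the cochaperones Dnajb11, Dnajc3 and Sdf2l1 had log2 fold changes between -0.09 and 0.11, with overlapping groups.

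Of the lectin chaperones, which hold glycoproteins during folding, neither passed. Calr had 989, 1019.5 and 1061 CPM in WT and 1003, 673 and 847 CPM in the Ahrr-deficient libraries. Here too replicate 1 stood among the WT libraries and the other 2 below them (log2 fold change -0.28, SE 0.15, adjusted p = 0.204). Canx, the membrane-bound calnexin, had 449.7, 454 and 443 CPM in WT and 572, 464 and 477 CPM in the Ahrr-deficient libraries. All 3 of these were above WT, replicate 1 by the widest margin (log2 fold change 0.17, adjusted p = 0.302, and 0.02 on the log2 scale with GC offsets).

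None of the 5 isomerases passed either. Pdia6, a disulphide isomerase that also acts on the sensors, had 196, 203 and 208 CPM in WT and 184, 141 and 175 CPM in the Ahrr-deficient libraries, without overlap (log2 fold change -0.29, SE 0.11, adjusted p = 0.0880). Pdia3, which works with calreticulin and calnexin, had 572, 590.2 and 620.2 CPM against 635, 445 and 518 CPM. Its groups overlapped through replicate 1. Pdia4, at a log2 fold change of 0.18, was higher in all 3 Ahrr-deficient libraries than in WT without passing the threshold, and P4hb, the classical disulphide isomerase, stood at 0.05. Ppib, a prolyl isomerase, had a log2 fold change of -0.16 and shares 825 exonic bases with Snx22 on the opposite strand.

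Manf and Creld2 encode small ER proteins that are secreted under stress, and neither passed the threshold. Creld2 had 29.9, 33.0 and 33.7 CPM in WT and 26.2, 22.1 and 28.1 CPM in the Ahrr-deficient libraries, all 3 below WT (log2 fold change -0.35, SE 0.12, adjusted p = 0.0660; 0.0478 by limma-voom). Manf had a log2 fold change of 0.05.

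In ER-associated degradation 1 of 7 tested genes rose and 0 fell. Derl1 encodes derlin-1, a membrane protein of the channel through which misfolded proteins leave the ER (chr15:57869502-57892448). It had 158, 152 and 147 CPM in WT and 168, 213 and 196 CPM in the Ahrr-deficient libraries. Every Ahrr-deficient library was above WT, replicate 1 by the least. The mean went from 152 ± 5.73 to 192 ± 22.6 CPM (SD, n = 3 each), a 1.27-fold rise (log2 fold change 0.34, SE 0.10, adjusted p = 0.0394, edgeR). This call was lost in 9 of 17 alternative settings, among them 5 of the 6 fits that left out 1 library; the fit without Ahrr-deficient replicate 1 kept it (adjusted p = 0.00283). Those 5 adjusted p were 0.1198 and 0.127 without WT replicates 1 and 2, 0.137 without WT replicate 3, and 0.125 and 0.108 without Ahrr-deficient replicates 2 and 3.

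Sel1l, the adaptor of the ubiquitin ligase Hrd1, had 291, 296 and 259.6 CPM in WT and 302, 386 and 340.3 CPM in the Ahrr-deficient libraries. The groups did not overlap, with replicate 1 again nearest to WT (log2 fold change 0.28, SE 0.11, adjusted p = 0.105). Its partner Syvn1, which encodes Hrd1 itself, had a log2 fold change of -0.14 and was below WT in all 3 Ahrr-deficient libraries; with GC offsets its log2 fold change was 0.0046. Edem2, which helps to trim mannose from misfolded glycoproteins, had 61.2, 58.1 and 57.5 CPM against 54.9, 46.4 and 45.5 CPM (log2 fold change -0.29, SE 0.10, adjusted p = 0.0643; 0.0453 with upper-quartile scaling and 0.0376 by limma-voom). Edem1, Herpud1 and Derl2 lay between 0.05 and 0.14 on the log2 scale, with overlapping groups.

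Derl3 had 29, 7 and 19 counts in WT and 2, 16 and 7 counts in the Ahrr-deficient libraries, or 1.32, 1.23 and 2.61 CPM against 0.557, 0.369 and 0.688 CPM. All Ahrr-deficient libraries were below WT, but the value of replicate 1 rests on fewer than the 3 counts taken as the floor of detection. The gene was called lower when no filter was applied and when WT replicate 2 or Ahrr-deficient replicate 1 was left out. In the fits that left out a library, only WT libraries reached the level of the filter, which favours a call as lower.

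Among the 8 genes of the translocon and of signal peptide processing, 0 passed the threshold, 6 had a log2 fold change above 0 and the median was 0.15. Over all tested genes 19.6% passed and 50.9% were above 0. Ssr3, a subunit of the translocon-associated protein complex, had 216, 226 and 213 CPM in WT and 291, 259 and 249.8 CPM in the Ahrr-deficient libraries. All 3 were above WT, and unlike Xbp1, Derl1 and Sel1l it was replicate 1 that stood farthest (log2 fold change 0.29, SE 0.09, adjusted p = 0.0523). It passed by DESeq2 (adjusted p = 0.0445) and limma-voom (0.0360), whereas with GC offsets its log2 fold change was 0.12 (adjusted p = 0.231). Ssr1 of the same complex, the channel subunit Sec61a1 and the signal peptidase subunit Spcs2 also had groups without overlap, with log2 fold changes of 0.22, 0.20 and 0.21 and adjusted p of 0.0933, 0.101 and 0.0872. With GC offsets these became 0.14, 0.23 and 0.14, and Sec61a1 passed (adjusted p = 0.0435). Ssr2, Spcs1, Sec61b and Sec61g, small subunits of these complexes, lay between -0.11 and 0.10 with overlapping groups. Sec61a1 shares 549 exonic bases with Gm44170 on the opposite strand.

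**Figure D3:**
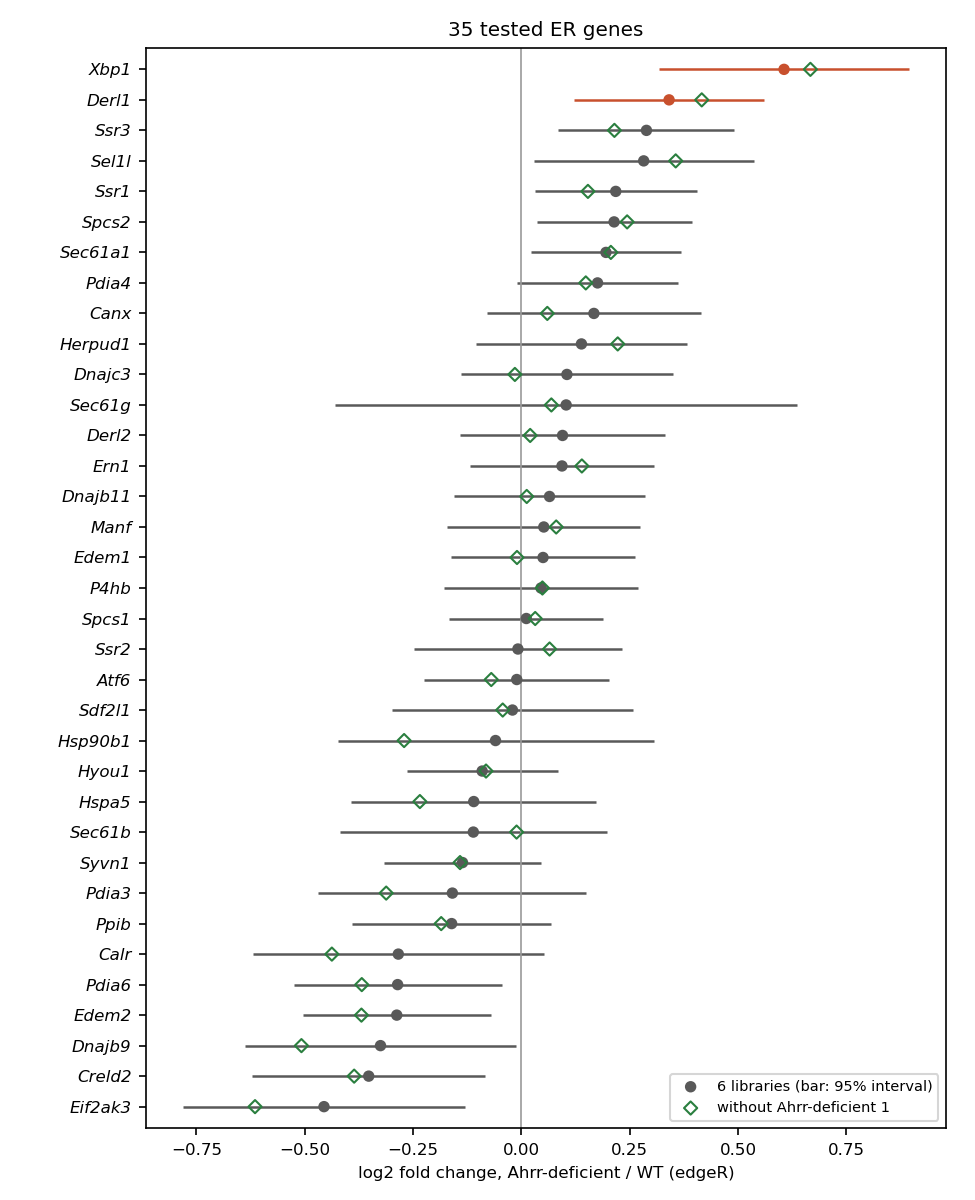
Log2 fold change of the 35 tested ER genes, Ahrr-deficient over WT, from edgeR. Filled points and bars give the value and 95% interval from 6 libraries, red for the 2 genes past the threshold, and open green diamonds give the value without Ahrr-deficient replicate 1. Xbp1 is highest at 0.61 and Eif2ak3 lowest at -0.46.

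Counted without a test, 9 of the 35 genes were higher and 6 lower in every Ahrr-deficient library than in every WT library, where 19.2% and 19.6% of all tested genes were. The 9 were Canx, Pdia4, Xbp1, Sel1l, Derl1, Sec61a1, Ssr1, Ssr3 and Spcs2, and the 6 were Pdia6, Ppib, Creld2, Eif2ak3, Edem2 and Syvn1. With CPM scaled by plain library totals the count was again 9 higher (23.9% of all genes) but only 1 lower, Creld2 (12.8% of all genes). Whether the other 5 lie below WT in every library depends on the scaling. The plain total of WT replicate 2 includes the 5.28% of counts on CT010467.1, and the TMM factor of that library was 0.904.

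For Hspa5, Hsp90b1 and Pdia3, Ahrr-deficient replicate 1 stood above all WT libraries and replicates 2 and 3 below them. Replicate 1 was the highest of the 3 Ahrr-deficient libraries for 17 of the 35 tested genes (48.6%), compared with 41.2% of all tested genes. It was the lowest of the 3 for 11 (31.4%), compared with 41.8% of all tested genes. Without it the same test called 14 of 36 tested ER genes, where 32.6% of 11837 genes passed. Of the 14, 6 were higher and 8 lower, next to 16.0% and 16.6% of all genes. The 6 were Xbp1, Derl1, Sel1l, Ssr3, Sec61a1 and Spcs2. The 8 were Calr, Pdia3, Pdia6, Dnajb9, Creld2, Edem2, Eif2ak3 and Derl3. Derl3, not tested with all 6 libraries, passed the filter of this fit only through its WT values, which favours a call as lower. In that fit Eif2ak3 had a log2 fold change of -0.61 (adjusted p = 0.00254), Dnajb9 -0.51 (0.00121), Calr -0.44 (0.0264) and Xbp1 0.67 (0.00457). Leaving out any of the other 5 libraries gave 0 or 1 ER gene. The gene was Xbp1 without WT replicate 1 or Ahrr-deficient replicate 2. Without WT replicate 2 it was Derl3, called lower, while neither Xbp1 nor Derl1 passed. Without WT replicate 3 or Ahrr-deficient replicate 3 the count was 0. The share of all genes past the threshold moved the same way, from 19.6% with all 6 libraries to 6.07%, 8.15% and 9.35% without WT replicates 1, 2 and 3, and to 8.31% and 10.3% without Ahrr-deficient replicates 2 and 3.

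The 9 genes with an ERSE in their promoter window, printed above, included 8 tested ones. Of these 8 genes 0 passed the threshold, where 19.6% of all tested genes did. Log2 fold changes of the 8 lay between -0.35 and 0.17 with a median of -0.12, and the 21 genes whose windows lacked an ERSE had a median of 0.06. Without Ahrr-deficient replicate 1, 4 of the 9 were called lower (Calr, Pdia6, Creld2 and Derl3) and 0 higher, where 16.6% of all genes were called lower and 16.0% higher. Of these 4, Derl3 entered that fit only through its WT values, so its call carries no weight. The part CCACG alone, which also lies inside the ERSE, occurred in 25 of 30 genes (83.3%) and 32.8% of all windows. The core of the XBP1 element, TGACGTGG, occurred in 0 of 30 genes and 0.676% of all windows; read on the other strand it contains CCACG. The ATF4 motif TGATGCAA occurred in Herpud1 alone (0.895% of all windows). The AhR motif TNGCGTG occurred in Edem1 and Sec61b, 2 of 30 genes (6.67%), against 5.07% of all windows; neither gene passed the threshold. All motifs were searched on both strands, and a match is a description of the letters only. Hyou1, Manf, Atf6, Derl1, Sec61a1 and Ssr2 had no window.

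The response beyond the 36 genes was read from 7 further lists of related genes. Of their 158 tested genes 17 rose and 13 fell, 18.99% in all, next to 19.6% of all tested genes.

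The list of the PERK and ATF4 branch had the largest share, with 5 of 11 tested genes higher and 1 lower. Ddit3 encodes CHOP, a transcription factor made under lasting stress, and had 12.1, 15.8 and 11.0 CPM in WT and 21.7, 77.2 and 42.4 CPM in the Ahrr-deficient libraries. Each of these was above WT, replicate 1 by far the least (log2 fold change 1.98, SE 0.38, adjusted p = 0.00915). Ddit3 shares 105 exonic bases with another annotated gene of that symbol on the same strand. On the opposite strand it shares 68 with Mars and 13 with Gm4189. Ppp1r15b, a cofactor of the phosphatase that reverses PERK's mark, rose from 192 ± 3.39 to 293 ± 37.3 CPM (log2 fold change 0.62, adjusted p = 0.00637). It shares 640 exonic bases with Gm26616 on the opposite strand. Eif2s1, the eIF2 alpha subunit that PERK phosphorylates, rose from 49.2 ± 2.22 to 74.5 ± 6.81 CPM (0.60, adjusted p = 0.00479).

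Atf3, a transcription factor induced by stress and by inflammatory signals, went the other way. It had 187, 199.8 and 184 CPM in WT and 112, 101 and 70.1 CPM in the Ahrr-deficient libraries, well separated (log2 fold change -1.02, SE 0.15, adjusted p = 0.00409). Atf4 and Trib3 also passed the threshold although their groups overlapped, and are named after their values were seen. Atf4 had 111, 125 and 82.3 CPM in WT and 116, 332 and 217 CPM in the Ahrr-deficient libraries (log2 fold change 1.08, SE 0.32, adjusted p = 0.0424). Trib3, a pseudokinase induced by ATF4 and CHOP, had 12.9, 14.4 and 4.11 CPM against 8.63, 91.7 and 48.1 CPM (2.33, SE 0.63, adjusted p = 0.0338). For both, replicate 1 lay within the WT range. The 5 tested genes of the list that did not pass were Ppp1r15a, Nupr1, Cebpb, Cebpg and Bbc3, with log2 fold changes from -0.32 to 0.25. Chac1, a target of ATF4, was too low to be tested, with 12, 4 and 1 counts in WT and 1, 199 and 23 counts in the Ahrr-deficient libraries. These counts are not scaled for depth. In the same order, the library totals were 21939809, 6300421 and 7137414 counts in WT and 3556106, 41668336 and 9888711 in the Ahrr-deficient group. The count of 6 became 3 without WT replicate 1, where the share of all genes past the threshold fell to 6.07%, and stayed between 4 and 8 when any other library was left out. ATF4 is controlled largely at translation, which mRNA counts do not measure.

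**Figure D4:**
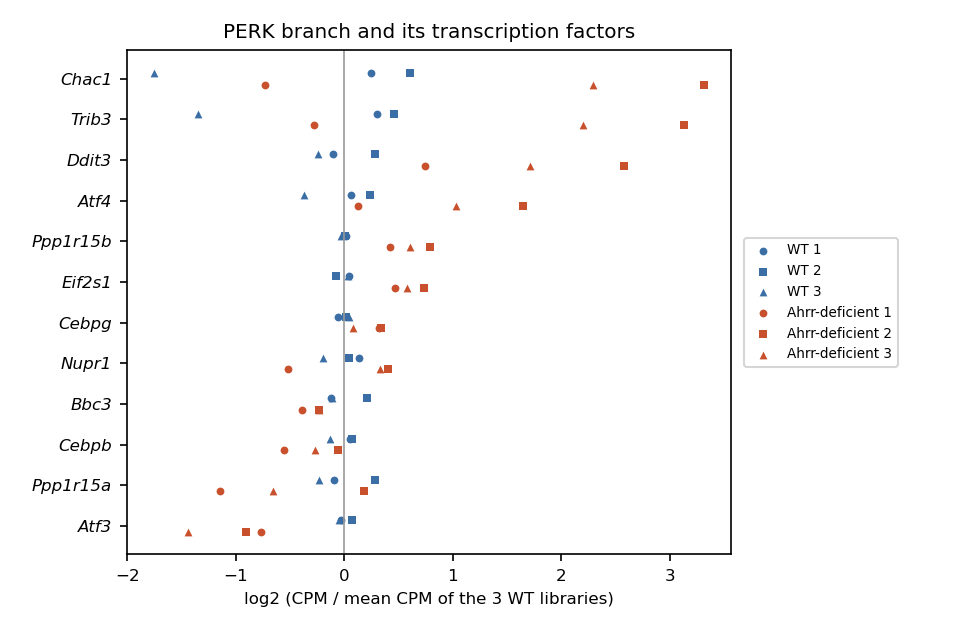
Level of the 12 listed genes of the PERK and ATF4 branch in each library, as log2 of CPM over the mean of the 3 WT libraries, with blue for WT, red for Ahrr-deficient and circle, square and triangle for replicates 1, 2 and 3. In the genes past the threshold and higher, Ahrr-deficient replicate 2 lies farthest to the right and replicate 1 nearest to WT, while Atf3 has all 3 red symbols to the left.

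Among 12 tested regulators of the sensors 1 rose, Ptpn1, a phosphatase of the ER surface that acts on IRE1 signalling (1.69-fold, log2 fold change 0.76, adjusted p = 0.0151). Of 40 further folding enzymes 2 rose and 6 fell. The rises were in the thioredoxin-like membrane protein Tmx3 (log2 fold change 0.55) and in Selenof (0.30), a selenoprotein of glycoprotein folding. Tmx3 shares 491 exonic bases with AC163277.1 on the same strand. The falls were led by the prolyl isomerases Fkbp9 (-0.77) and Fkbp7 (-0.65) and by Creld1 (-0.47).

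In the further list of ER-associated degradation 3 of 28 rose: Erlin2 (0.35), Ngly1 (0.32), which removes sugars from exported glycoproteins, and the ubiquitin-conjugating enzyme Ube2j1 (0.30). Aup1 fell (-0.27); it shares 753 exonic bases with Htra2 on the opposite strand. Of 30 further genes of protein entry and membrane insertion 3 rose, the signal peptidase subunit Spcs3 (0.45), the insertase subunit Emc2 (0.33) and Srp72 of the signal recognition particle (0.29), and Emc8 fell (-0.46). Emc8 shares 323 exonic bases with Gm27021 on the same strand. In the oligosaccharyltransferase, which attaches sugars to entering chains, Tusc3 rose (0.30) while Ost4 (-0.50) and Dad1 (-0.28) fell, 3 of 12. Ost4 shares 677 exonic bases with Agbl5 on the opposite strand. Of 25 genes of transport between ER and Golgi, the coat proteins Sec24a (0.64) and Sar1a (0.29) rose, whereas Kdelr1 (-0.47), a receptor that returns escaped chaperones, and the fusion protein Stx5a (-0.32) fell.

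These counts moved with single libraries, and so did the share of all genes past the threshold, from 19.6% to 32.6% without Ahrr-deficient replicate 1 and to between 6.07% and 10.3% without any other. The 8 calls among folding enzymes became 14 without Ahrr-deficient replicate 1 and between 2 and 5 without any other library. The 4 calls in ER-associated degradation became 6 without Ahrr-deficient replicate 1 and 0 or 1 without any other, and the 4 in protein entry became 10 and between 0 and 2. For the oligosaccharyltransferase 3 calls became 5 and 0 or 1, for transport 4 became 6 and 1 or 2, and for the sensor regulators 1 became 3 and 0 or 1.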

How the data were processed

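For each of the 6 libraries the authors deposited unnormalized read counts and, with gene identifiers, a normalized signal (counts divided by a size factor per library) for 16111 genes with at least 10 counts. In that deposited signal 100% of values were whole multiples of 1 read (tolerance 1e-06), and the recovered reads equalled the raw counts, so identifiers were joined to counts. Per the submitters' processing notes, CASAVA 1.8.2, fastp 0.20.0, STAR 2.7.10b, SAMtools 1.16.1, R 4.3.1, DESeq2 1.40.2 and build mm10 were used; annotation, counting program and use of strand are not given in the sources used here. Libraries were made from 100 ng of polyA RNA and read as single 75 bp reads, per the labels.

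Counts were tested with edgeR 4.0.16 (quasi-likelihood, TMM, filterByExpr, genotype only) in R 4.3.3, two-sided, adjusted by Benjamini-Hochberg over 11408 genes, of which 2232 passed 0.05. CPM are counts per 1000000 of the library total times its TMM factor (0.904 to 1.04). RPKM divide by the exon length of GENCODE M21, in which 16094 of 16111 identifiers were found. Standard errors come from the fold change and the F statistic, and the coefficient of variation was 13.0%. A floor of 3 counts is 0.072 CPM in the deepest library and 0.844 in the shallowest; it covers counting error only. Replicates differed beyond sampling noise (chi-square per degree of freedom 5.79 to 175.07), so they were not treated as repeat readings of 1 library, and each counts as 1. The values of 70.0 and 175.07 both involve WT replicate 2, the library with the high count on CT010467.1. Such values cannot show whether cultures were started separately.

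The ER genes and lists were chosen with earlier results of these data known. All 36 genes were described; of each further list up to 3 genes per direction are named, with the largest change among genes that passed, averaged 50 counts or more and did not overlap between groups. Alternatives (17) included other scalings and filters, DESeq2 1.42.0, limma-voom 3.58.1, GC offsets, thinning, a replicate block and leaving out libraries. Counts of the further lists without single libraries were added after seeing the data. The fit was tested on simulated data.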

Additional observations from a re-analysis of the deposited data

How the results depend on the processing

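Over 17 alternatives no ER gene past the threshold changed direction. Xbp1 stayed past it in 14, with adjusted p from 7.0e-05 to 0.0581 and log2 fold changes of 0.50 to 0.71, and Derl1 in 8, with adjusted p from 0.00283 to 0.137. The count of ER genes past the threshold, 2 in the report (2 higher, 0 lower), was 5 with no filter on low counts (3 lower; 11.7% of all genes passed), 4 with DESeq2 (1 lower; 17.5%), 6 with limma-voom (3 lower; 24.1%) and 4 with GC offsets (1 lower; 17.5%). It was 3 with upper-quartile scaling (1 higher, 2 lower: Edem2 and Eif2ak3; 19.6%) and 1 (Xbp1; 11.9%) after thinning every library to the smallest total. Leaving out 1 library gave 0 to 14 (0 to 6 higher, 0 to 8 lower; 6.07% to 32.6%), and leaving out WT replicate 2 and Ahrr-deficient replicate 1 together gave 9 (3 higher, 6 lower; 25.6%). The genes called lower included Derl3 with no filter, without WT replicate 2 or Ahrr-deficient replicate 1, and without both of these. The 2232 genes past the threshold over all became 1230.0 after thinning and 694 to 3857 when 1 library was left out. The median log2 fold change of the ER genes was -0.035 after thinning and -0.010 with the replicate block and GC offsets together; the cause was not tested.

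Replicate numbers occur in both genotypes. Deviations from the genotype mean had correlations of -0.17, 0.07 and 0.13 between same-numbered libraries, and of -0.21 to 0.16 between differently numbered ones. With 3 libraries per genotype these values cannot tell whether same-numbered libraries shared a preparation. With the replicate block, 1 ER gene passed (1 higher, Xbp1) and 1390.0 genes over all; with the replicate block and GC offsets, 2 ER genes (1 higher, 1 lower) and 1180.0 genes over all. Over all genes log2 fold changes followed GC content (Spearman -0.29 across 11394 genes, which are not independent replicates). GC offsets moved the log2 fold changes of single ER genes: Ssr3 from 0.29 to 0.12, Canx from 0.17 to 0.02, Syvn1 from -0.14 to 0.0046, Dnajb9 from -0.33 to -0.48, Hspa5 from -0.11 to -0.18 and Hsp90b1 from -0.06 to -0.20. Depth limits Derl3 and Sec61g most.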
